A study of Rattus norvegicus with 6 samples.

Results

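The Arp2/3 complex builds branched actin networks. It is made of the actin-related proteins Arp2 (ACTR2) and Arp3 (ACTR3) and of 5 further positions, ARPC1 to ARPC5. ARPC1 and ARPC5 each come in alternative forms, ARPC1A or ARPC1B and ARPC5 or ARPC5L, which gives the 9 genes treated here. A second Arp3 gene, ACTR3B, is described apart from them. The 9 genes were chosen by name, and all 9 were listed among the 17648 genes of the expression matrix. A complex that is switched on by WASP-type or WAVE proteins binds the side of an existing filament and starts a new one at an angle. Cdc42 and Rac, small GTPases, act upstream of these activators. In the nervous system such networks drive lamellipodia, endocytosis, growth cones and dendritic spines, and in microglia they drive phagocytosis and movement. ARPC1B is known as the form that prevails in blood cells.

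The samples were cultures from newborn (neonatal) rats of the Sprague-Dawley strain, labelled as neurons of the spinal cord and treated with Ara-C at 0.05 mg/mL after plating to limit dividing cells. After 3 days of culture they were exposed to 10 μM glutamate for 1 h and kept for a further 16 h in glutamate-free medium. There were 3 libraries transfected with a control small interfering RNA (siR-Con) and 3 with an siRNA against galectin-3 (siR-GAL3), so both groups shared transfection and glutamate by the design text and the paper. The sample labels instead gave saline for the siR-Con libraries, glutamate for the siR-GAL3 libraries alone, and a knockout in place of a knockdown. If the labels were right, glutamate and siRNA could not be told apart. A single siRNA against galectin-3 is described, and the sources used here do not say whether replicates came from separate animals, so that p-values measure the spread between these libraries, which may be technical. The values were derived from FPKM, that is per transcript length and library size, and were then corrected by the authors. They stay on a linear scale, and the depth of each library is unknown.

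Libraries are listed in the order of replicates 1, 2 and 3 throughout. The targeted gene LGALS3 read 77.4, 54.4 and 62.4 for siR-Con and -1.64, 32.3 and 18.5 for siR-GAL3, with no overlap. Exactly equal values joined the libraries into sets. Set 1 was siR-Con 1 with siR-GAL3 1, set 2 was siR-Con 2 and 3 with siR-GAL3 3, and siR-GAL3 2 was alone in set 3 and also stood apart on the first principal component, at 27.9 against a range of -8.52 to -1.94. Results are therefore also given with the set as a block, a fit in which siR-GAL3 2 carries no weight, or without siR-GAL3 2. The neuronal label was only partly borne out by neuronal markers. RBFOX3 (NeuN) lay between 0.300 and 0.429 and TUBB3 between 4.03 and 5.19, while MAP2 lay between 13.1 and 19.0 and ELAVL3 between 7.81 and 11.02. The other listed neuronal markers in the matrix all had means below the TUBB3 range. Over all libraries these means were 0.264 for ELAVL4, 0.343 for NEFL, 0.594 for NEFM, 1.056 for STMN2 and 1.891 for SYT1. MAP2 and ELAVL3 were thus the exceptions among the neuronal markers. Glial RNA was present as well, with 514.8 to 757.7 for the astrocyte gene GFAP and 628.6 to 918.5 for the myelin gene MBP. In bulk RNA, more cells of a type and more RNA per cell cannot be told apart.

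RefSeq promoter sequences (assembly GRCr8) were found for 8 of the 9 genes, all except ARPC1A. Those of ARPC1B, ARPC3 and ARPC4 are shown, the first because it differed from the other subunits in its motif and the others because their levels were most alike over the libraries. Each is the 250 bases upstream of the annotated start. Capitals mark GAGGAAGT, the form of ETS motif that PU.1 (SPI1, a factor of the myeloid lineage) is known to prefer, and CGGAAGT, the general ETS motif, on either strand. The motifs were looked at with these promoters in view, and they cannot overlap in one place on one strand.
ARPC1B, chr12:14609489-14609738, minus strand: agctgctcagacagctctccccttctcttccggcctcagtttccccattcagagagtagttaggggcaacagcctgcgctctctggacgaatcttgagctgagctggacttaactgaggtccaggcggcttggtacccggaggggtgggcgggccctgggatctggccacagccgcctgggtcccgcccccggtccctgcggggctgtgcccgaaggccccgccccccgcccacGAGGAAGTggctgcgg
ARPC3, chr12:39847437-39847686, minus strand: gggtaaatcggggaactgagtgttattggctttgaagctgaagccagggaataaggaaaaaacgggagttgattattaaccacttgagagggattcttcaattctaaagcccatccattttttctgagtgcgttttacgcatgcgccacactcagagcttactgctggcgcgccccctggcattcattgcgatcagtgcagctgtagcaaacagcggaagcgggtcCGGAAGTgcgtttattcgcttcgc
ARPC4, chr4:148077649-148077898, plus strand: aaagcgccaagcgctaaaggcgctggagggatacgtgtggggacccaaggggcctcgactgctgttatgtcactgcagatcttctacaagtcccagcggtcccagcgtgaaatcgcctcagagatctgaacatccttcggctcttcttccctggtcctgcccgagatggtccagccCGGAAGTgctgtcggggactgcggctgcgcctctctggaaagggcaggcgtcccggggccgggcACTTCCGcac
GAGGAAGT was present in ARPC1B alone among the 8, beginning 16 bases before the start, and 2.04% of 33469 RefSeq promoters of the same length held it. CGGAAGT was present in 5 of the 8, ARPC2, ARPC3, ARPC4, ACTR2 and ACTR3, against 5.22% of all promoters, and ARPC4 held it 2 times. The GC box GGGCGG was in 6 of the 8 (30.5% of all promoters) and TATAAA in none (12.9% of all promoters). A match is a string in this window and not a measured binding site. ARPC1B and ARPC1A are neighbours on chromosome 12, with ARPC1A next after ARPC1B, and the predicted gene Hint1l2 overlaps both in GRCr8. Named pseudogenes, with which reads could be shared, are annotated for ARPC5L (4), ARPC1B (2), ARPC1A (1), ACTR2 (1) and ACTR3 (1). The build behind the matrix is not given in the sources used here, so the coordinates belong to GRCr8 only.

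RNA levels of the subunit genes were far from equal. The assembled complex holds each position once, but that is a count of proteins, and alternative forms share the ARPC1 and ARPC5 positions. On the FPKM-derived scale, ARPC2 was the most abundant with a mean of 46.9 over the 6 libraries, at percentile 99.2 of all genes. ARPC1A (20.4), ARPC5 (18.8) and ARPC3 (18.7) came next, followed by ARPC1B (14.6), ACTR2 (13.6), ACTR3 (12.9) and ARPC4 (10.4). ARPC5L was lowest at 2.74, percentile 73.6. ARPC2 lay above ARPC1A, ARPC3 above ARPC1B and ARPC4 above ARPC5L in all 6 libraries without overlap of their ranges. The ranges of all other neighbours in this order overlapped, ARPC5 and ARPC3 for example being higher in 3 libraries each. ACTR3B, the second Arp3 gene, lay between 0.510 and 1.03 and was too low to be tested.

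Most subunits were higher in siR-GAL3, by modest amounts. All 9 had a mean of at least 1 and could be tested, and 8 were fitted higher and ACTR2 lower. The median log2 fold change was 0.22, against 0.00 over the 8495 genes tested with limma on log2(value + 1), a scale that understates changes of low genes. In 6 of the 9 every siR-GAL3 library lay above every siR-Con library, which was so for 10.3% of all genes tested, and none lay below (10.3% of all genes). Unadjusted p was under 0.05 for 4 subunits, ARPC1B, ARPC3, ARPC5 and ARPC5L, all higher, against 4.41% of all genes called in that direction. No subunit had a Benjamini-Hochberg adjusted p under 0.05 in limma, and none of the 8495 genes did, 736 of them (8.66%) having an unadjusted p under 0.05. Summed over the 9 genes, expression was 147.8 to 154.1 in siR-Con and 164.3 to 168.4 in siR-GAL3.

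The count of 4 depended on single libraries. It was 2 without siR-Con 1, 1 without siR-Con 2 and 0 without siR-Con 3. In these fits 6.09%, 4.12% and 4.05% of all genes passed in either direction, against 8.66% over all 6 libraries. The count was 5 without siR-GAL3 2, where 6.98% of all genes were higher at that threshold. Blocking on library set left 2, against 5.92% of all genes, and none with an adjusted p under 0.05, against 1.25%. None met a log2 fold change beyond 1 with an unadjusted p under 0.05, as 0.318% of all genes did. Without siR-GAL3 2, 8 of the 9 subunits were higher with no overlap, where 15.6% of all genes were, while the median log2 fold change was 0.13.

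**Figure D1:**
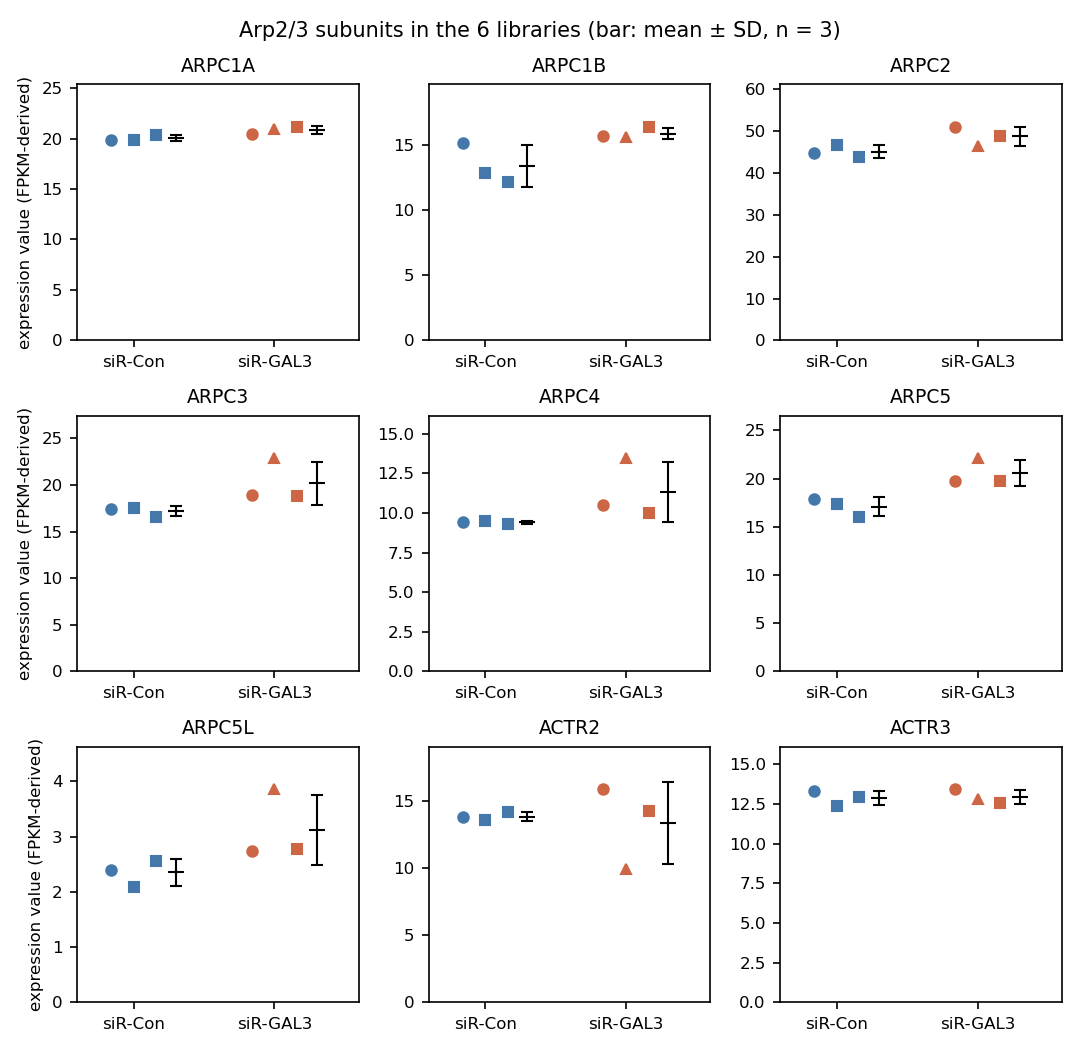
Expression value (FPKM-derived, linear, y axis from 0) of each Arp2/3 subunit in siR-Con (blue) and siR-GAL3 (orange) libraries; circles are library set 1, squares set 2 and triangles set 3, and bars give mean ± SD (n = 3). The triangle, siR-GAL3 2, is the highest point for ARPC3, ARPC4, ARPC5 and ARPC5L and the lowest for ACTR2.

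Arp2 and Arp3 form the seed from which the daughter filament grows. ACTR2 was 13.8, 13.6 and 14.2 in siR-Con and 15.9, 9.97 and 14.2 in siR-GAL3. The siR-Con values were tight, whereas siR-GAL3 held both the highest and the lowest value. The fitted log2 change was -0.07 (standard error 0.15, limma adjusted p = 0.833), and this sign turned to 0.11 without siR-GAL3 2 and to 0.10 when blocked on the set. ACTR3 was 13.3, 12.4 and 13.0 in siR-Con and 13.4, 12.9 and 12.6 in siR-GAL3, with overlapping groups. For ACTR3 the log2 fold change was 0.01, with a 95% interval from -0.15 to 0.16, and was the closest to 0 of all subunits.

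ARPC2 and ARPC4 form the scaffold that clamps the mother filament. ARPC2 was 44.8, 46.7 and 43.7 in siR-Con and 50.9, 46.5 and 48.7 in siR-GAL3. Only siR-GAL3 2 lay within the siR-Con range. The mean went from 45.1 ± 1.51 to 48.7 ± 2.20 (SD, n = 3 each), 8.11% higher, with a log2 fold change of 0.11 (standard error 0.07, limma adjusted p = 0.596). ARPC4 was 9.40, 9.50 and 9.33 in siR-Con and 10.5, 13.5 and 9.98 in siR-GAL3. All siR-GAL3 values were above the siR-Con values, and siR-GAL3 2 was far above the other two. The mean difference of 20.3% corresponded to a log2 fold change of 0.23 (standard error 0.11, limma adjusted p = 0.585), and it was 0.11 without siR-GAL3 2.

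ARPC3 links Arp3 to the rest of the complex. It was 17.5, 17.5 and 16.6 in siR-Con and 18.9, 22.9 and 18.8 in siR-GAL3, again with siR-GAL3 2 on top and no overlap. The group means were 17.2 ± 0.527 and 20.2 ± 2.33 (SD, n = 3 each). Its log2 fold change of 0.22 (standard error 0.09, limma unadjusted p = 0.0493, adjusted p = 0.574) was 0.13 without siR-GAL3 2. Leaving out any one siR-Con library raised the unadjusted p above 0.05, to at most 0.143 without siR-Con 3.

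ARPC5 and ARPC5L occupy the same position as alternative forms, ARPC5L being the less studied one. ARPC5 was 17.9, 17.4 and 16.0 in siR-Con and 19.8, 22.1 and 19.8 in siR-GAL3, which did not overlap. The mean was 17.1 ± 0.973 against 20.6 ± 1.34 (SD, n = 3 each). Its log2 fold change of 0.25 (standard error 0.08) had the smallest p of the subunits (limma unadjusted p = 0.0145, adjusted p = 0.440). It stayed between 0.20 and 0.29 with each library left out, and the unadjusted p was above 0.05 in 1 of these 6 fits (0.0654, without siR-Con 3). ARPC5L was 2.40, 2.09 and 2.57 in siR-Con and 2.74, 3.86 and 2.78 in siR-GAL3. This was the largest relative difference, 32.9% and a log2 fold change of 0.29 (standard error 0.12, limma unadjusted p = 0.0443, adjusted p = 0.567), but it was 0.17 without siR-GAL3 2. It also passed an unadjusted 0.05 in none of the fits without 1 siR-Con library, where p was 0.0866, 0.143 and 0.0561 without siR-Con 1, 2 and 3. ARPC5L made up 11.8, 10.7 and 13.8% of ARPC5 and ARPC5L together in siR-Con and 12.2, 14.8 and 12.3% in siR-GAL3. These shares overlapped.

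ARPC1A and ARPC1B, the WD-repeat subunits through which activators contact the complex, gave the contrast of interest. ARPC1B was chosen for this contrast with its values in these libraries known, so its difference is no independent evidence. ARPC1B was 15.2, 12.9 and 12.1 in siR-Con and 15.7, 15.6 and 16.3 in siR-GAL3. The groups did not overlap, but siR-Con 1 lay next to the siR-GAL3 values and away from siR-Con 2 and 3. Within set 1 the log2 difference between siR-GAL3 and siR-Con was accordingly 0.04, and within set 2 it was 0.36. The fit over all libraries gave 0.23 (standard error 0.09, limma unadjusted p = 0.0378, adjusted p = 0.541). The unadjusted p rose above 0.05 without siR-Con 2 (0.117), siR-Con 3 (0.141), siR-GAL3 1 (0.0688) or siR-GAL3 3 (0.102). ARPC1A was 19.8, 19.9 and 20.4 in siR-Con and 20.4, 21.0 and 21.1 in siR-GAL3. It also had no overlap, but differed by 4.16%, a log2 fold change of 0.06 (standard error 0.06, 95% interval -0.09 to 0.20, limma adjusted p = 0.684). ARPC1B made up 43.4, 39.3 and 37.3% of both forms together in siR-Con and 43.4, 42.6 and 43.6% in siR-GAL3. The share in siR-Con 1 thus equalled that in siR-GAL3 1, its partner in set 1.

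ARPC1B was set against each of the other 8 subunits in the same libraries. The change of ARPC1B exceeded that of ARPC1A by 0.18 on the log2 scale (standard error 0.10, exact permutation test, two-sided p = 0.3). It exceeded that of ACTR3 by 0.23 (standard error 0.09) with no overlap of the within-library differences, which gives the smallest p that 3 against 3 allow (exact permutation p = 0.1, 0.8 after Benjamini-Hochberg adjustment over the 8 comparisons). The differences from ARPC3, ARPC4, ARPC5 and ARPC5L lay between -0.06 and 0.02. For ARPC2 the difference was 0.12 and for ACTR2 0.31, and no adjusted value of the 8 was under 0.8. With 10 possible splits the design cannot reach 0.05, so these values do not show that the subunits acted alike.

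**Figure D2:**
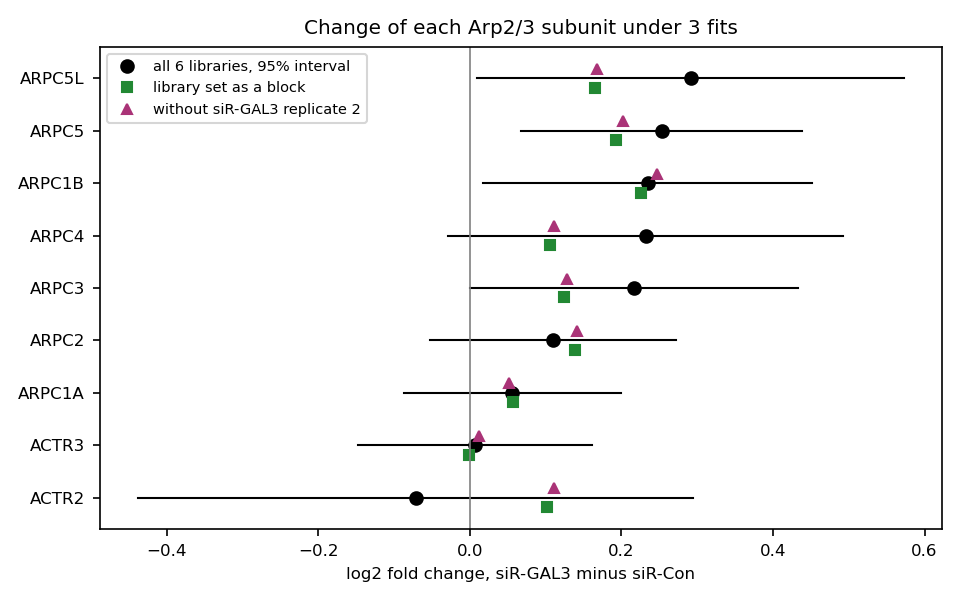
Log2 fold change (x axis, siR-GAL3 minus siR-Con on log2(value + 1)) of each Arp2/3 subunit (y axis); black points with lines are the limma fit over all 6 libraries with its 95% interval, green squares the fit blocked on library set and purple triangles the fit without siR-GAL3 2. ARPC1B and ARPC1A hardly move between fits, whereas ARPC3, ARPC4 and ARPC5L shrink and ACTR2 turns from -0.07 to 0.11.

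The subunits fell into patterns across libraries. As a description over 6 libraries, which share the group difference and the library sets, ARPC3 and ARPC4 had a Pearson r of 0.979, ARPC3 and ARPC5 0.944 and ARPC4 and ARPC5L 0.926, while ACTR2 ran opposite to ARPC4 with r = -0.788. The high and low points of siR-GAL3 2 weigh on all of these. ARPC1B was closest to ARPC5 (r = 0.826), which ranked only 180 among the genes tested by likeness to ARPC1B. The 5 genes outside the complex most like ARPC1B were SERPING1, a complement inhibitor (r = 0.987), RT1-CE10, an MHC class I gene (0.985), LYZ2, the macrophage lysozyme (0.984), LCN2, an acute-phase lipocalin (0.982), and EFEMP2, a matrix protein (0.980). All 5 shared the high value of siR-Con 1 among the siR-Con libraries. SERPING1, for example, was 3.08, 0.286 and -0.322 in siR-Con and 6.95, 5.38 and 7.37 in siR-GAL3, and EFEMP2 was 4.54, 3.53 and 3.44 in siR-Con and 4.43, 4.67 and 4.73 in siR-GAL3. In siR-Con 2 and 3, LYZ2 read -6.30 and -7.91 and LCN2 -6.88 and -7.57. All values below 0 were set to 0 before r was computed, so r for SERPING1, LYZ2 and LCN2 rests partly on replaced values.

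The genes that act on the complex showed no common shift. Of 47 genes listed around Arp2/3, 41 could be tested, with a median log2 fold change of -0.03, and 19 were fitted higher and 22 lower. Unadjusted p was under 0.05 for 6 higher and 2 lower genes, against 4.41% and 4.25% of all genes. Nothing is read from these counts, because the lists were drawn up with earlier results of these libraries known. The higher genes were HCLS1, NCKAP1L, RAC2, RHOG, CORO1A and GMFG, and the lower genes were CDC42 and FNBP1L. None had an adjusted p under 0.05 in limma. Without siR-Con 2 or without siR-Con 3 the count of 8 was 4. In those fits 4.12% and 4.05% of all genes passed, against 8.66% over all 6 libraries.

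**Figure D3:**
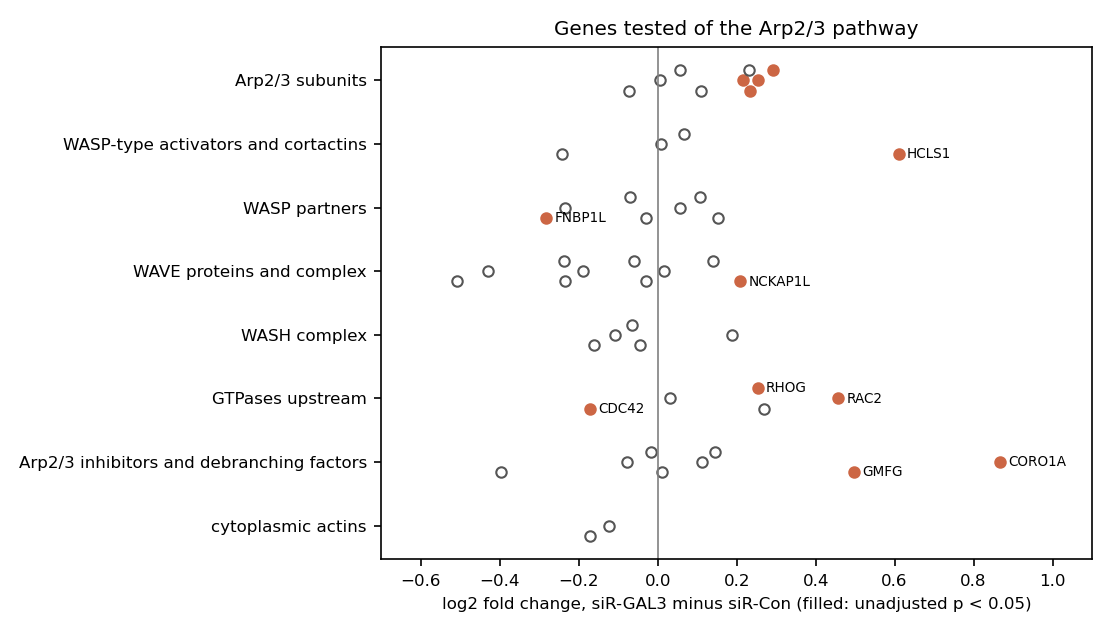
Log2 fold change (x axis, siR-GAL3 minus siR-Con) of every tested gene of the Arp2/3 lists (y axis); filled points have an unadjusted p under 0.05 and are named outside the subunit row. Of the 9 subunits 7 sit between 0.06 and 0.29, and the farthest points to the right are HCLS1 (0.61) and CORO1A (0.87).

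Among activators, HCLS1, the cortactin relative of blood cells, was 1.69, 1.66 and 1.64 in siR-Con and 2.88, 3.41 and 2.92 in siR-GAL3. The gap between the groups was wider than the range within either group. The log2 fold change of 0.61 (standard error 0.07, limma adjusted p = 0.0921) lay between 0.55 and 0.64 with each library left out. Its adjusted p was 0.0135 with the set as a block. CTTN, cortactin itself, was at 0.00393 to 0.0179 in every library, below the filter. The reason for so low a CTTN value was not tested. The other activator genes tested, WASL (0.01) and JMY (-0.24) of the WASP type and NCKIPSD (0.07), had unadjusted p of at least 0.221 in limma. NCKIPSD did not overlap between the groups. JMY was at -0.02 without siR-GAL3 2. WAS, the blood-cell WASP, had a mean below 1 and was not tested, with 0.678, 0.727 and 0.850 in siR-Con and 1.16, 1.06 and 1.07 in siR-GAL3. Of the WASP partners, FNBP1L (Toca-1, which links Cdc42 to WASL) was 4.44, 4.81 and 4.79 in siR-Con and 3.999, 3.05 and 4.02 in siR-GAL3. Its log2 fold change was -0.28 (standard error 0.10, limma unadjusted p = 0.0255, adjusted p = 0.516), and it was -0.18 without siR-GAL3 2. The unadjusted p was under 0.05 in 4 of the 6 fits that left out a library. TRIP10, a relative of FNBP1L, was also lower without overlap at a log2 fold change of -0.07, or -0.04 without siR-GAL3 2.

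The WAVE complex carries Rac signals to Arp2/3. Of its 10 tested genes 7 were fitted lower, with a median log2 fold change of -0.13, but the median was 0.04 without siR-GAL3 2, where WASF3 for example was 4.09 against 8.77 to 11.5 elsewhere. ABI2 was 10.1, 11.1 and 10.7 in siR-Con and 9.97, 4.77 and 9.19 in siR-GAL3, without overlap, and its log2 fold change of -0.43 was -0.14 without siR-GAL3 2. NCKAP1L, the blood-cell form of the scaffold NCKAP1, went the other way, with 1.53, 1.68 and 1.73 in siR-Con and 2.39, 1.79 and 2.02 in siR-GAL3 and a log2 fold change of 0.21 (standard error 0.09, limma adjusted p = 0.574). Its unadjusted p of 0.0475 was under 0.05 in 1 of the 6 fits that left out a library, the one without siR-GAL3 2. The WASH complex, which works on endosomes, had 1 gene fitted higher and 4 lower, with unadjusted p of at least 0.181. The cytoplasmic actins ACTB and ACTG1 had log2 fold changes of -0.12 and -0.17, and of -0.01 and 0.01 without siR-GAL3 2.

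Among the GTPases, CDC42 was 71.2, 71.7 and 71.1 in siR-Con and 65.7, 59.1 and 65.2 in siR-GAL3, a log2 fold change of -0.17. Its unadjusted p of 0.0448 in limma was under 0.05 in 1 of the 6 fits that left out a library. RAC1 was 81.4, 80.7 and 80.7 in siR-Con and 82.5, 82.8 and 82.9 in siR-GAL3, a log2 fold change of 0.03. RAC2, the Rac of blood cells, was 4.99, 5.72 and 5.26 in siR-Con and 7.68, 8.26 and 7.13 in siR-GAL3. Its log2 fold change of 0.46 (standard error 0.08, limma adjusted p = 0.149) lay between 0.41 and 0.50 with each library left out. RHOG, a GTPase that activates Rac, was 21.0, 20.5 and 19.7 in siR-Con and 21.9, 26.0 and 25.9 in siR-GAL3, a log2 fold change of 0.25 (limma adjusted p = 0.499), with an unadjusted p under 0.05 in 3 of the 6 fits that left out a library. Only CDC42 was lower in every siR-GAL3 library among the 5 GTPases listed.

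Of the proteins that restrain or take apart branches, CORO1A, the coronin of blood cells, had the largest difference of the pathway. It was 1.69, 1.04 and 0.975 in siR-Con and 2.61, 3.54 and 3.02 in siR-GAL3, and the log2 fold change was 0.87 (standard error 0.14, limma adjusted p = 0.129), which lay between 0.78 and 1.01 with each library left out. With the set as a block its adjusted p was 0.0494. GMFG, a debranching factor of blood cells, was 2.94, 3.27 and 2.79 in siR-Con and 3.87, 6.14 and 4.16 in siR-GAL3. The log2 fold change of GMFG was 0.50 (standard error 0.15, limma adjusted p = 0.411) and 0.33 without siR-GAL3 2. GMFB, the related form of brain, was 20.5, 18.02 and 19.8 in siR-Con and 18.9, 10.0 and 15.9 in siR-GAL3, with a log2 fold change of -0.40 and an unadjusted p of 0.0941 in limma, and the change was -0.15 without siR-GAL3 2. CORO1B was 16.1, 15.5 and 16.0 in siR-Con and 16.9, 17.6 and 17.3 in siR-GAL3, a log2 fold change of 0.11, and ARPIN, an inhibitor of the complex, was lower without overlap at -0.08.

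Of the 6 pathway genes higher at an unadjusted p under 0.05, all except RHOG are forms known from blood cells and microglia. Of 7 such genes paired with a broadly expressed relative, 5 had a mean of at least 1, HCLS1, NCKAP1L, RAC2, CORO1A and GMFG, and these are the 5 genes just counted, with a median log2 fold change of 0.50. The list was drawn up with earlier results of these libraries known, so that nothing is read from their count against the 4.41% of all genes that passed in that direction. The other two, WAS and ABI3, were below the filter. ABI3 was 0.488, 0.661 and 0.400 in siR-Con and 0.777, 0.918 and 0.848 in siR-GAL3, so that it did not overlap either, whereas ABI1 had a log2 fold change of 0.02. Among the 6 broadly expressed relatives tested, none had an unadjusted p under 0.05 (8.66% of all genes), and the median log2 fold change was 0.01. Of them 2, RAC1 and CORO1B, were higher without overlap (10.3% of all genes). Over only 6 genes, no difference from these shares is read. ARPC1B belongs with the blood-cell forms by its known distribution, but at 0.23 its log2 fold change was near the low end of theirs, 0.21 to 0.87, and its level was far higher. All 5 tested forms kept an unadjusted p under 0.05 in limma without siR-GAL3 2 and when blocked on the set. HCLS1 and CORO1A also had an adjusted p under 0.05 in each of these fits, and RAC2 only without siR-GAL3 2. NCKAP1L lost its unadjusted p under 0.05 in the other 5 fits that left out a library.

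**Figure D4:**
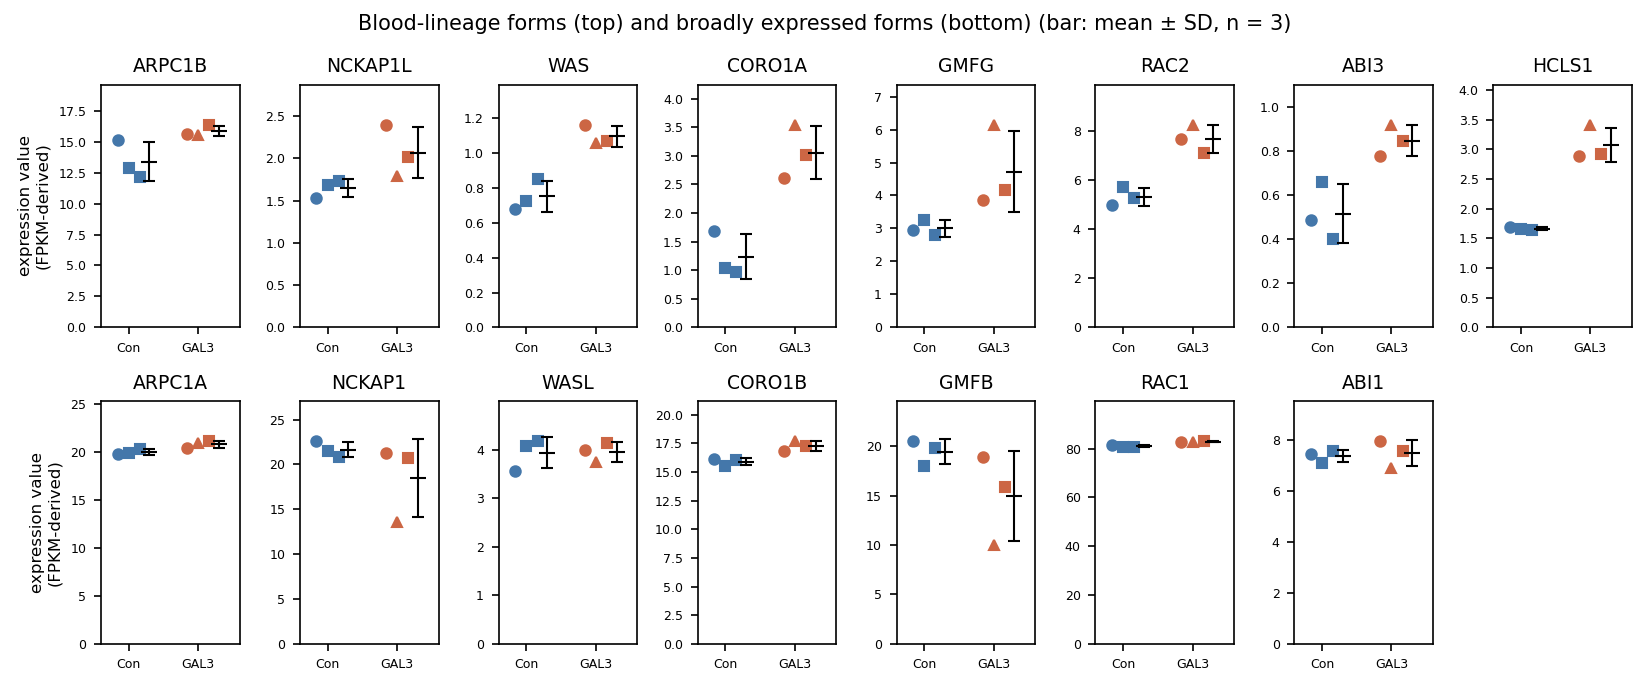
Expression values (FPKM-derived, linear, y axes from 0) of blood-lineage forms (top row) and their broadly expressed relatives (bottom row, HCLS1 without CTTN, which was near 0) in siR-Con (blue) and siR-GAL3 (orange); symbols are the library sets 1 (circle), 2 (square) and 3 (triangle), and bars are mean ± SD (n = 3). Every top panel has all siR-GAL3 points above all siR-Con points, and in the bottom row only ARPC1A, CORO1B and RAC1 do. Of all genes tested, 10.3% were higher without overlap. The pairs were chosen with earlier results of these libraries known, so nothing is read from the contrast of the rows.

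Of 18 listed markers of microglia 17 could be tested, and 9 were higher with an unadjusted p under 0.05 (4.41% of all genes) and none lower (4.25% of all genes). None had an adjusted p under 0.05 in limma. Their summed expression was 149.9, 178.1 and 177.1 in siR-Con and 217.1, 198.2 and 195.1 in siR-GAL3, and no marker was at 0, TMEM119 being the lowest at 0.415 to 0.530. CD68 (log2 fold change 0.54), AIF1 (0.57) and FCER1G (0.47) were among the 9, whereas P2RY12 (0.02), CX3CR1 (0.02), CSF1R (0.08), TREM2 (0.09) and LAPTM5 (-0.05) had unadjusted p of at least 0.529. SPI1, which encodes PU.1, was 1.15, 1.37 and 1.31 in siR-Con and 1.84, 1.99 and 1.32 in siR-GAL3, a log2 fold change of 0.25 with overlapping groups. Of 8 astrocyte markers 3 were lower with an unadjusted p under 0.05 (4.25% of all genes), as were 3 of 5 tested markers of fibroblasts and vessels, while of 10 oligodendrocyte markers none passed and of 5 tested neuronal markers only STMN2, which was higher. Astrocyte markers summed to 869.8 to 1012 in siR-Con and 751.7 to 813.2 in siR-GAL3. Most of that sum was GFAP, at 571.1 to 757.7 in siR-Con and 514.8 to 533.4 in siR-GAL3. Of the 8 astrocyte markers 6 were fitted lower and 2 higher, and 2 were lower without overlap (10.3% of all genes). Markers of fibroblasts and vessels summed to 43.98 to 51.4 in siR-Con and 33.9 to 39.0 in siR-GAL3. Oligodendrocyte markers summed to 1076 to 1140 and 1084 to 1409, and neuronal markers to 32.8 to 37.7 and 30.6 to 37.7. The part of cell composition in the differences of the Arp2/3 genes was not tested.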

How the data were processed

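RNA of 3 siR-Con and 3 siR-GAL3 libraries was analysed from the deposited expression matrix, and every column was mapped to a sample by name. The authors aligned reads with STAR, counted them with HTSeq and computed FPKM, which they went on to adjust for batch, standardize and correct for differences inside each group, with tools they do not name. The deposited values are therefore an FPKM-derived quantity, of which 3.86% were below 0. This correction can shrink the spread between replicates and so the p-values. The build, depth and strand setting are not given in the sources used here.

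Negative values were replaced by 0 before log2(value + 1). The limma 3.58.1 fit (intensity trend, R 4.3.3) took the 8495 genes whose mean reached 1, and p-values were adjusted over all of them (Benjamini-Hochberg). Of these genes, 24 held a value below 0. A threshold of |log2 fold change| above 1 with an unadjusted p under 0.05 was met by 27 genes (0.318%), none of them an Arp2/3 subunit. ARPC1B was compared with each other subunit by exact permutation. The limma script was tested on simulated data. Members, gene lists and alternatives were chosen with earlier results of these data known. Named were all subunits, pathway genes with an unadjusted p under 0.05 or no overlap, the paralogue pairs and the 5 genes most like ARPC1B, and other genes were named after their values were seen. Promoters came from RefSeq (GRCr8) and were searched in Python 3.11.15. Alternatives covered the pseudocount, filters, scaling, trend, log scale, blocks and left-out libraries.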

Additional observations from a re-analysis of the deposited data

How the results depend on the processing

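Direction was kept for all subunits except ACTR2 and ACTR3 under the alternatives run. Blocked on library set, ACTR2 was 0.10, and it ranged from -0.20 to 0.11 with each library left out. ACTR3 was -0.0008 under the same block, and ranged from -0.0191 to 0.0286 with each library left out, at -0.0191 without siR-Con 2 and -0.0184 without siR-GAL3 1. The 4 subunits with an unadjusted p under 0.05 became 2 when blocked on library set, and between 0 and 5 with each library left out, fits in which 4.05% to 16.3% of all genes passed. The 8 pathway genes became 2 with a mean of at least 10, where only 1120 genes were tested and 10.8% of them passed. Their count was between 4 and 11 with each library left out. ARPC1B ranged from 0.17 to 0.32 with each library left out, with an unadjusted p under 0.05 in 2 of 6 fits, and its adjusted p ranged from 0.220 to 0.874. The difference between ARPC1B and ARPC1A ranged from 0.10 to 0.27. ARPC1B within sets, without siR-GAL3 2, was 0.20 on average, an alternative chosen after seeing the data.

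Labels gave both groups replicate numbers 1 to 3. Across genes, the deviations of same-numbered libraries from their group means correlated at -0.17, -0.07 and 0.044. These correlations cannot decide whether the numbers mark pairs, because the values had been corrected within groups and siR-GAL3 2 stood apart. By equal values, replicates 1 shared set 1 and replicates 3 shared set 2, but replicates 2 did not share a set. With the replicate number as a block in limma, 1 of 9 subunits and 6 of 41 pathway genes had an unadjusted p under 0.05, against 6.39% of all genes. ARPC1B was at 0.23 in this replicate block, with adjusted p = 0.695 in limma. The cause of these shifts was not tested. Without read counts the depth sets no limit that could be computed here.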
